A study of Mus musculus with 16 samples.

Results

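Genes of leukocytes, macrophages and mast cells were followed in cultures set up to study myoblasts, the proliferating progeny of muscle satellite cells. The members were 37 gene symbols of immune cells, and a gene was taken where its symbol was among the gene names that the array files give to their probes. All 37 were found among the 34836 gene names of the array, read by 47 probes. By role they fall into 7 pan-leukocyte genes, 20 monocyte and macrophage genes, 4 genes of MHC class II antigen presentation and 6 mast cell genes.

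RNA came from C57Bl/6J wild-type males aged 11 to 13 weeks, without any transgene or drug, and was measured on 16 mouse arrays of Agilent's one-color design, 4 for each of 4 groups. Dispersed myoblasts had been plated off the fiber on gelatin, and myofiber-associated myoblasts had been kept on explanted single fibers and were stripped from them with trypsin. Both cultures were sampled 48 and 72 hr after isolation from muscle. Each array carries a separate preparation, from 1 mouse for dispersed and 2 mice for myofiber-associated myoblasts, except that replicate 10 of the myofiber-associated 48-hr group is a pool of 2 preparations. No step that sorts cells by type is named in the sources used here, and every sample carries the source label of myofibers, so that the growth type in the labels had to tell the cultures apart. The trypsin strength is given differently in the labels and in the study's methods. All dispersed arrays lay on 1 slide and all myofiber-associated arrays on another, so that culture and slide cannot be told apart, and the 48- and 72-hr arrays filled different columns of each slide.

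Values are log2 of the scanner's processed signal after loess and quantile normalization, and a difference of 1 is a 2-fold change. Genes with a median log2 signal below 5 over the 16 arrays were left out of the tests, which kept 20317 genes and 29 of the 37 members. Ptprc, Cd53, Cd163, Cybb, Fcgr1, Fcgr3, H2-Aa and Ms4a2 were below it and are given by their values alone. A difference was called where limma's two-sided test gave a Benjamini-Hochberg adjusted p under 0.01 over all genes tested. The myoblast markers among the lists, such as Pax7, Myod1 and Des, were well above background on every array (11 of 11 genes in each group). The labels state that quality controls found no RNA of the fiber in the stripped cells. The study also describes these stripped preparations as highly pure. The 12 adult muscle fiber genes averaged 8.21 to 10.24 per array in dispersed and 12.64 to 16.19 in myofiber-associated myoblasts.

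Macrophages are the most common resident leukocytes of muscle. They depend on the receptor CSF1R for survival, take up debris through scavenger and Fc receptors, degrade it in lysosomes with enzymes such as cathepsin S, and secrete the complement subunits C1qa, C1qb and C1qc. MHC class II molecules present peptides to helper T cells and need the invariant chain, CD74, to be assembled. Mast cells sit near vessels and nerves, live on KIT signaling and store the proteases CPA3, CMA1, MCPT4 and TPSB2 in granules. The transcription factor PU.1, encoded by Spi1, is active in myeloid cells, GATA factors in mast cells, and the Y box is an element of MHC class II promoters.

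The stretches of 250 bases before the RefSeq start sites of 4 members are shown because these genes stand for the 4 patterns described below. Ctss represents the macrophage genes that were lower with time, Laptm5 the pan-leukocyte gene that rose, H2-Eb1 the MHC class II gene whose change differed between the cultures, and Cpa3 the mast cell proteases. The capitals mark GAGGAA, the core of PU.1 sites, in Ctss and Laptm5. In the promoter of H2-Eb1 they mark CCAAT, the core of the Y box. In that of Cpa3 the motif in capitals is a GATA site, AGATAA. Both strands were searched. On the build GRCm38.p6 they lie at chr3:95526536-95526785 on the plus strand (Ctss), chr4:130913066-130913315 on the plus strand (Laptm5), chr17:34305617-34305866 on the plus strand (H2-Eb1) and chr3:20242182-20242431 on the minus strand (Cpa3).
Ctss: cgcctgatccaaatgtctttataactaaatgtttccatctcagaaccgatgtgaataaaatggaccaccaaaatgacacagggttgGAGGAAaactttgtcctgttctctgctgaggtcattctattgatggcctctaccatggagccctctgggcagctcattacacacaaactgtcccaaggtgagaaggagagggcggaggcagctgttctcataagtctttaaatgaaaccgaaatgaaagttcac
Laptm5: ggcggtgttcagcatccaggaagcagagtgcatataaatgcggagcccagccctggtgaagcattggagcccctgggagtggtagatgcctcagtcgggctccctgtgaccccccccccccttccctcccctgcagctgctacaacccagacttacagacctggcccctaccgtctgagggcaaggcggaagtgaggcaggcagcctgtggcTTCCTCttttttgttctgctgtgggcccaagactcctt
H2-Eb1: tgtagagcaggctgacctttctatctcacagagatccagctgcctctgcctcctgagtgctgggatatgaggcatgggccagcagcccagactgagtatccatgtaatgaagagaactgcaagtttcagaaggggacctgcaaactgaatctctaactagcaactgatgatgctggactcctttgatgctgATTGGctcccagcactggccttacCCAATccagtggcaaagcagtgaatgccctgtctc
Cpa3: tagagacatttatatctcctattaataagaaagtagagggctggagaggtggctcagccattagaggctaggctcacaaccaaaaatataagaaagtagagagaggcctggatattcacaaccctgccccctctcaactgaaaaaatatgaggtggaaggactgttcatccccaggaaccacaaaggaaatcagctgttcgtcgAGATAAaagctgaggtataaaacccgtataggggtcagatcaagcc
In Ctss the motif begins 164 bases before the start site and in Laptm5, on the opposite strand as TTCCTC, 38 bases before it. H2-Eb1 holds CCAAT 35 bases and its reverse, ATTGG, 59 bases before the start site, and Cpa3 holds AGATAA 46 bases before it. The RefSeq table gave windows for 28 of the 37 members and none for Tyrobp, Cd74, C1qa, Cd52, Emr1, Cd14, Tpsb2, H2-Ab1 and Csf1r. GAGGAA was in 9 of 17 windows of monocyte and macrophage members (52.9%) and in 23.3% of all 32851 windows of the same length. Counted by gene, it was in 8 of 15 of these members and in 6986 of 27025 genes. It was in 3 of 9 pan-leukocyte windows (33.3%), 2 of 6 mast cell windows (33.3%) and 0 of 2 MHC class II windows. AGATAA was in 2 of 6 mast cell windows against 9.99% of all, and CCAAT in 2 of 2 MHC class II windows against 33.8% of all. A match is a run of letters and not a site shown to be bound. Spi1 itself was well above background on 0 of 16 arrays, with a highest log2 signal of 3.76. Whether its probe responds to Spi1 RNA was not tested, so that absence of this RNA is not shown.

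Before the comparisons, detection shows which cells' genes could be followed. In dispersed 48-hr arrays 18 of 20 monocyte and macrophage members were well above background on all 4 arrays, as were 7 of 7 pan-leukocyte, 3 of 4 MHC class II and 5 of 6 mast cell members. In myofiber-associated 72-hr arrays these counts were 11, 4, 3 and 2. Cd163, a scavenger receptor for hemoglobin, was above background on 1 of 16 arrays, myofiber-associated 48-hr replicate 9, at 5.58. Ms4a2, the beta chain of the high-affinity IgE receptor, was above background on none, at 2.09 to 2.43. Ptprc, the common leukocyte antigen CD45, had log2 signals of 4.88, 5.04, 5.11 and 4.87 in dispersed 48-hr and 4.79, 4.54, 4.66 and 3.86 in dispersed 72-hr arrays. On myofiber-associated arrays it had 3.99, 4.54, 5.69 and 4.25 at 48 hr and 3.71, 3.05, 3.67 and 4.41 at 72 hr. The dispersed times did not overlap and the myofiber-associated times did, and 2 of the 4 myofiber-associated 72-hr arrays were not well above background for Ptprc.

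**Figure D1:**
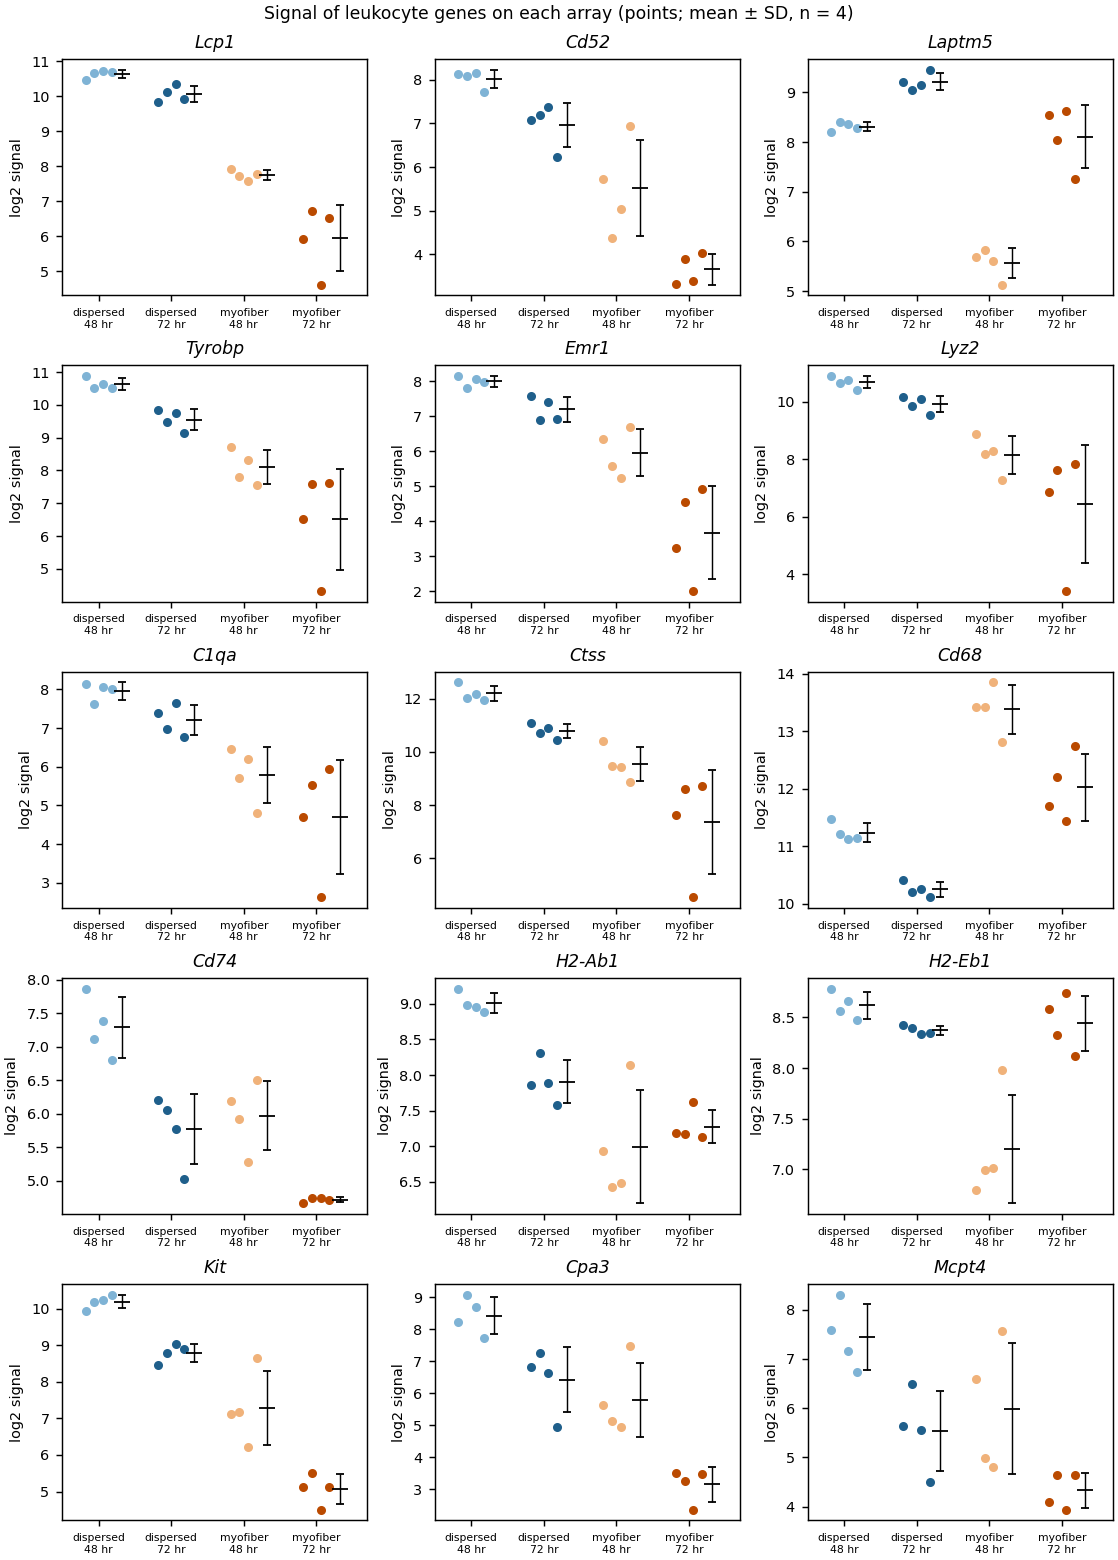
Log2 signal (y axis) of 15 leukocyte genes on each array, grouped by culture and time (x axis). Points are arrays, and the bar beside them is the mean ± SD (n = 4). Most genes step down from dispersed 48 hr to myofiber-associated 72 hr, where 1 array, replicate 3, lies far below the other three for Lyz2 (3.41), Ctss (4.53) and Tyrobp (4.33), whereas Laptm5 is higher at 72 hr in both cultures and Cd68 is higher in the myofiber-associated arrays. Lyz2 was not well above background on that replicate 3.

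In dispersed myoblasts 11 members fell from 48 to 72 hr, 1 rose and 17 were not called. Over all genes tested 6.35% fell and 7.37% rose. The median log2 difference was -0.82 over the 29 members and 0.02 over all genes, and 26 members lay below 0. The same cultures lost signal of other resident cells of muscle: 11 of 12 endothelial genes fell (median -1.47) and 6 of 7 Schwann cell genes (median -0.996), while 5 of 11 myoblast genes rose. Where a culture holds more than 1 cell type, fewer cells of a type and less RNA per cell cannot be told apart in its RNA.

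Among the monocyte and macrophage members 6 of 16 fell, none rose and the median difference was -0.81. Ctss, cathepsin S, had log2 signals of 12.63, 12.05, 12.18 and 11.96 at 48 hr and of 11.09, 10.72, 10.90 and 10.45 at 72 hr. All 72-hr arrays were below all 48-hr arrays, and the fall was 2.67-fold (log2 difference -1.41, SE 0.18, adjusted p = 0.00098). Tyrobp, the adaptor of activating receptors also called DAP12, had 10.88, 10.51, 10.64 and 10.51 at 48 hr and 9.84, 9.47, 9.74 and 9.14 at 72 hr. It fell 2.12-fold (-1.08, SE 0.16, adjusted p = 0.0021), again with no overlap. Cd68, a lysosomal membrane protein, went from 11.47, 11.21, 11.13 and 11.14 to 10.42, 10.21, 10.27 and 10.12, which is a 1.98-fold fall (-0.98, SE 0.09, adjusted p = 0.00028).

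Emr1, an adhesion receptor on the surface of macrophages, had 8.15, 7.80, 8.07 and 7.98 at 48 hr and 7.57, 6.88, 7.41 and 6.91 at 72 hr. Its fall (-0.81, SE 0.17) was just past the threshold, with an adjusted p of 0.00998. Lyz2, the macrophage lysozyme, was just short of it: 10.89, 10.65, 10.75 and 10.39 at 48 hr and 10.17, 9.86, 10.09 and 9.52 at 72 hr gave -0.76 (SE 0.16, adjusted p = 0.0102). Lyz1, a near-identical gene whose probe may also bind Lyz2 transcripts, fell by 0.82 on the log2 scale, as did Fcer1g, the signaling chain of Fc receptors. C1qa had 8.13, 7.62, 8.06 and 8.01 at 48 hr and 7.40, 6.99, 7.66 and 6.78 at 72 hr, and 1 of the 72-hr arrays overlapped the 48-hr arrays (-0.75, adjusted p = 0.028).

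Of the other 8 members of this role, C1qb, C1qc, Aif1, Mpeg1, Ms4a7 and Csf1r were lower on average without passing the threshold, with differences of -1.17 (Aif1, a calcium-binding protein of macrophages) to -0.30 (Csf1r). Cd14, the lipopolysaccharide co-receptor, differed by 0.19 and Mrc1, the mannose receptor, by 0.35, the only positive differences of the role, and neither was called. The Fc receptors Fcgr1 and Fcgr3, which were not tested, averaged 6.13 and 6.61 at 48 hr and 4.35 and 5.71 at 72 hr, without overlap. Cybb, the catalytic subunit of the phagocyte oxidase, was well above background on 2 of 4 arrays at 48 hr and 1 of 4 at 72 hr.

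Of the MHC class II members, Cd74 and H2-Ab1 fell in dispersed myoblasts. Cd74 had 7.87, 7.11, 7.38 and 6.80 at 48 hr and 6.21, 6.05, 5.78 and 5.03 at 72 hr, a 2.87-fold fall without overlap (-1.52, SE 0.30, adjusted p = 0.0081). This call held under 8 of 17 alternatives and in 1 of the 8 fits that left out 1 array. H2-Ab1, the class II beta chain of the A locus, went from 9.21, 8.99, 8.96 and 8.88 to 7.86, 8.31, 7.88 and 7.58, a 2.15-fold fall (-1.10, SE 0.15, adjusted p = 0.0013). H2-Eb1, the beta chain of the E locus, differed by -0.24 (SE 0.07, adjusted p = 0.034) and was not called. H2-Aa was well above background on 3 of 4 arrays at 48 hr and on none at 72 hr. The bound on its drop, 1.67-fold, is therefore uncertain.

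Kit was the mast cell member that fell. It had 9.95, 10.19, 10.24 and 10.38 at 48 hr and 8.48, 8.78, 9.03 and 8.89 at 72 hr, a 2.64-fold fall without overlap (-1.40, SE 0.13, adjusted p = 0.00027). Kit is not particular to mast cells, since melanocytes and some progenitors carry it. Of the proteases, Cpa3, Mcpt4 and Cma1 had larger differences and Tpsb2 a smaller one. Cpa3, carboxypeptidase A3, had 8.23, 9.08, 8.69 and 7.72 at 48 hr and 6.82, 7.27, 6.64 and 4.95 at 72 hr (-2.01, SE 0.51, adjusted p = 0.022). Mcpt4, a chymase of connective tissue mast cells, had 7.58, 8.30, 7.16 and 6.73 and then 5.64, 6.49, 5.55 and 4.50 (-1.90, SE 0.46, adjusted p = 0.019). Neither pair of groups overlapped, and neither difference passed the threshold, nor did those of Cma1 (-1.64) and Tpsb2 (-0.76).

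The pan-leukocyte members did not move together. Lcp1, an actin-bundling protein, had 10.47, 10.67, 10.73 and 10.69 at 48 hr and 9.85, 10.13, 10.36 and 9.92 at 72 hr and fell by 0.58 on the log2 scale (SE 0.12, adjusted p = 0.0085). Cd48, an adhesion molecule, fell by 0.61. Laptm5, a lysosomal membrane protein of blood cells, rose 1.87-fold: it had 8.21, 8.41, 8.35 and 8.28 at 48 hr and 9.20, 9.05, 9.16 and 9.45 at 72 hr (0.90, SE 0.09, adjusted p = 0.00032). Cd52, a small surface glycoprotein, had 8.13, 8.09, 8.16 and 7.72 and then 7.08, 7.18, 7.37 and 6.24 and was not called (-1.06, SE 0.24, adjusted p = 0.014), nor was Coro1a (-0.28). Cd53 was not tested and averaged 5.44 and 5.05.

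The count of 11 falling members was 6 to 10 when single arrays were left out, with the lowest count without 48-hr replicate 1, 2 or 3 or without 72-hr replicate 6. With all 16 arrays in 1 fit 3 members fell and Laptm5 was not called, and the cause of this drop was not tested. The calls of Emr1 and Lcp1 each held under 5 of 17 alternatives and in 1 of the 8 fits without 1 array.

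In myofiber-associated myoblasts 1 member fell and 1 rose between 48 and 72 hr, against 1.75% and 3.74% of all genes. With all 16 arrays in 1 fit 10 members fell and 2 rose here, where 3 fell in dispersed myoblasts. Which culture had more falling members therefore depended on the fit. The median difference of the 29 members was -1.35, and 24 members lay below 0. It was -0.71 without 72-hr replicate 3, and -0.35 over all 37 members under normexp, a background correction that adds an offset to every signal. Signal of other cell types was lower too: 7 of 12 endothelial genes fell (median -2.41), as did 3 of 9 fibroblast genes (median -1.16) and 1 of 12 adult muscle fiber genes (median -2.01). None of the 16 monocyte and macrophage members passed the test by its brightest probe, all 16 lay below 0, and the median was -1.41, or -0.38 over 20 members under normexp. The second probe of Cd68 fell (-1.86, adjusted p = 0.0094). The median of this role was -0.66 without 72-hr replicate 3 and -0.98 without both that array and the pooled 48-hr replicate 10, and then 15 of 16 lay below 0.

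Emr1 had log2 signals of 6.35, 5.57, 5.24 and 6.68 on 48-hr replicates 7, 8, 9 and 10 and of 3.23, 4.53, 2.01 and 4.92 on 72-hr replicates 1 to 4. The times did not overlap, and the difference of -2.29 (SE 0.63, adjusted p = 0.036) was not called. Its size is uncertain, since 2 of 4 arrays at 72 hr were well above background for this probe. The second Emr1 probe, well above background on all arrays, gave -0.86 (adjusted p = 0.012). Over the alternatives the Emr1 difference ran from -2.70 to -0.78. Lyz2 had 8.87, 8.17, 8.26 and 7.26 at 48 hr and 6.84, 7.61, 3.41 and 7.83 at 72 hr (-1.72, SE 0.92, adjusted p = 0.19). Replicate 3 lay more than 3 log2 units below the other 72-hr arrays, which overlapped the 48-hr arrays. C1qa behaved alike, with 6.45, 5.71, 6.19 and 4.81 at 48 hr and 4.71, 5.53, 2.63 and 5.94 at 72 hr (-1.09, SE 0.70, adjusted p = 0.27). On replicate 3 Lyz2 and C1qa lay below 4.07, the lowest signal well above background on that array. How far they lay below the other arrays is therefore uncertain.

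Ctss had 10.42, 9.47, 9.42 and 8.87 at 48 hr and 7.63, 8.62, 4.53 and 8.71 at 72 hr (-2.17, SE 0.88, adjusted p = 0.10). Tyrobp had 8.71, 7.81, 8.31 and 7.56 and then 6.51, 7.59, 4.33 and 7.62 (-1.59, SE 0.69, adjusted p = 0.12). Both genes had their lowest value on 72-hr replicate 3, and in Ctss the times did not overlap. Cd68 had 13.42, 13.42, 13.85 and 12.82 at 48 hr and 11.71, 12.21, 11.44 and 12.74 at 72 hr, also without overlap (-1.35, SE 0.31, adjusted p = 0.021). The remaining tested members of the role ranged from -2.16 (Ms4a7, a tetraspanning membrane protein) to -0.09 (Mrc1).

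Cd74 fell in the myofiber-associated culture as it did in the dispersed one. It had 6.19, 5.92, 5.29 and 6.50 at 48 hr and 4.66, 4.75, 4.74 and 4.71 at 72 hr (-1.26, SE 0.23, adjusted p = 0.0096), without overlap. The call was lost under 12 of 18 alternatives and held under 6. Over all settings, those where it held among them, the adjusted p ran from 0.0013 to 0.034. H2-Ab1 had 6.93, 6.43, 6.48 and 8.14 at 48 hr and 7.19, 7.17, 7.62 and 7.12 at 72 hr (0.28, SE 0.36, adjusted p = 0.57), so that the pooled replicate 10 was above all 72-hr arrays and the other three 48-hr arrays below them. H2-Eb1 had 6.80, 6.99, 7.02 and 7.98 and then 8.58, 8.33, 8.74 and 8.12, without overlap and 2.37-fold higher on average at 72 hr (1.24, SE 0.26, adjusted p = 0.016). Without the pooled array H2-Eb1 passed the threshold with an adjusted p of 0.0018 (range over 18 alternatives 0.00038 to 0.054).

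The mast cell members were highest on the pooled 48-hr array. Kit had 7.11, 7.17, 6.21 and 8.66 at 48 hr, the last being the pool, and 5.13, 5.52, 4.50 and 5.13 at 72 hr. The times did not overlap, and the difference of -2.22 (SE 0.47) had an adjusted p of 0.016, or 0.0074 without the pool. Cpa3 had 5.63, 5.15, 4.93 and 7.47 at 48 hr and 3.50, 3.26, 2.36 and 3.48 at 72 hr, where no array was well above background. Its group means of 5.80 and 3.15 gave a drop of at least 4.26-fold (adjusted p = 0.015, or 0.0044 without the pool). For Cma1, likewise not well above background at 72 hr, the bound was 2.95-fold, and its difference was not called (adjusted p = 0.023). At 48 hr 3 of 4 arrays were well above background for Cma1, so that its bound is uncertain. Under normexp the Cpa3 difference was -0.85 (adjusted p = 0.076), smaller than its bound. These bounds set the brighter group's mean against the lowest signal of probes well above background on each array of the dimmer group, or against the dim probe's own signal where that was higher. Mcpt4 had 6.59, 4.999, 4.80 and 7.57 and then 4.10, 4.64, 3.94 and 4.63 (-1.66, SE 0.59, adjusted p = 0.071), with no overlap.

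Laptm5 was the member that rose, by more than in dispersed myoblasts. It had 5.69, 5.83, 5.61 and 5.13 at 48 hr and 8.55, 8.03, 8.62 and 7.25 at 72 hr, a 5.84-fold rise without overlap (2.55, SE 0.30, adjusted p = 0.0022). On 72-hr replicate 3, where most macrophage genes were lowest, Laptm5 had its highest value. Lcp1 and Cd52 lay in the opposite direction without being called. Lcp1 had 7.92, 7.73, 7.57 and 7.78 and then 5.92, 6.73, 4.61 and 6.52 (-1.81, SE 0.41, adjusted p = 0.021), and Cd52 had 5.73, 4.38, 5.03 and 6.95 and then 3.32, 3.89, 3.40 and 4.04 (-1.86, SE 0.50, adjusted p = 0.032), with 1 of 4 arrays at 72 hr well above background. Cd48 differed by -0.33 and Coro1a, an actin-binding coronin, by 0.14.

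The change between times was compared between the cultures as the interaction of culture and time over all 16 arrays. It was lower in dispersed than in myofiber-associated myoblasts for 2 of 29 members, Laptm5 and H2-Eb1, and higher for none by limma, against 2.37% and 1.08% of all genes. Over the 29 members 17 differences lay above 0 and 12 below. The Laptm5 difference was -1.64 (SE 0.34, adjusted p = 0.0083), from a rise in both cultures, and the H2-Eb1 difference was -1.49 (SE 0.29, adjusted p = 0.0061). Each call held without 3 of the 16 arrays left out in turn and was lost without any of the other 13. Over all these fits the adjusted p ran from 0.00041 to 0.021 for Laptm5 and from 0.00012 to 0.016 for H2-Eb1. Without the pooled replicate 10 there were 4 calls. All 3 MHC class II members tested had differences below 0, with a median of -1.38, whereas the median was 0.47 for the monocyte and macrophage members, -0.14 without 72-hr replicate 3, and 0.49 for the mast cell members. Under normexp background correction the mast cell median turned to -0.32, and without the pooled array to -0.04.

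**Figure D2:**
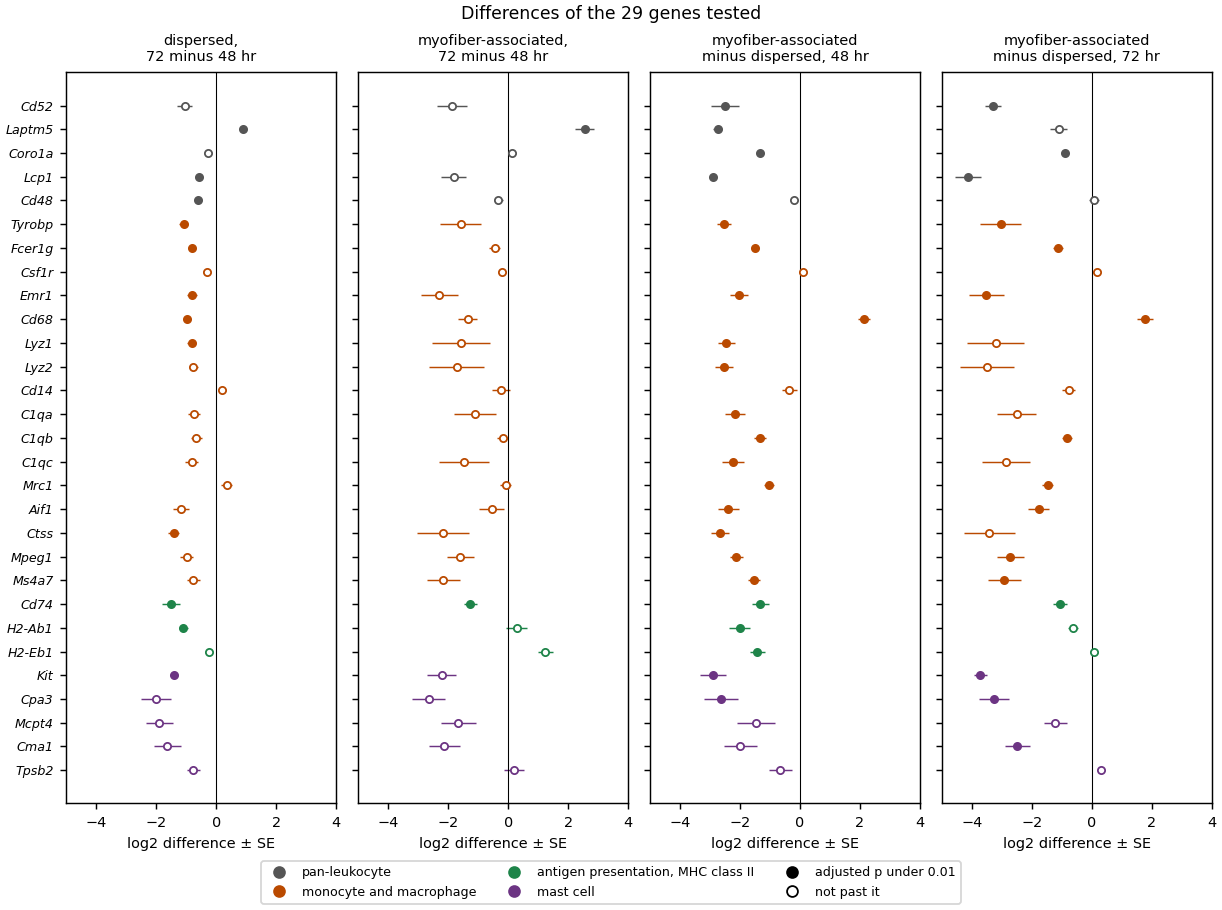
Log2 differences ± SE (x axis) of the 29 members tested (rows, colored by role), between times in each culture and between cultures at each time. Filled points passed an adjusted p of 0.01 by limma over all 20317 genes. Points lie mostly left of 0 in all 4 panels, with Laptm5 to the right in both time comparisons (0.90 and 2.55) and Cd68 to the right in both culture comparisons (2.14 and 1.77).

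The level of most members was lower in myofiber-associated than in dispersed myoblasts at both times. At 48 hr 22 of 29 members were lower and 1 was higher, against 27% and 16.1% of all genes, and the median difference was -2.02 over the members and -0.12 over all genes, or -1.07 over 37 members under normexp. At 72 hr 15 were lower and 1 was higher, against 15.6% and 11.5% of all genes, with a median of -1.77, or -0.69 under normexp. The adult muscle fiber genes went the other way by a median of 6.11 at 48 hr and 5.85 at 72 hr, and 11 of 12 endothelial genes were lower at each time (medians -2.71 and -3.42), with 6 and 4 of 7 Schwann cell genes. The part of the larger fiber RNA signal in these differences was not tested. The values from which the comparisons were made are those given above for each array.

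At 48 hr 13 of 16 monocyte and macrophage members were lower in the myofiber-associated culture. Tyrobp was 5.79-fold lower (-2.53, SE 0.24, adjusted p = 6.9e-05), Lyz2 5.77-fold (-2.53, SE 0.30, adjusted p = 0.00023), C1qa 4.49-fold (-2.17, SE 0.33, adjusted p = 0.00076) and Emr1 4.11-fold (-2.04, SE 0.30, adjusted p = 0.00060). Ctss was 6.32-fold lower (-2.66, adjusted p = 0.00019). None of these 5 genes overlapped between the cultures. The share of all genes without overlap was not counted, and Tyrobp and Ctss were named for their large differences in this comparison. The lack of overlap is therefore no result about the members. Csf1r by its brightest probe differed by 0.08 and Cd14 by -0.35, and neither was called.

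At 72 hr 8 of 16 were lower, among them Tyrobp (8.21-fold, -3.04, SE 0.68, adjusted p = 0.0080), whose call held under 9 of 16 alternatives and in 3 of the 8 fits that left out 1 array. Emr1 was lower as well (-3.52, SE 0.59, adjusted p = 0.0022), but 2 of 4 myofiber-associated arrays were well above background for it, so that the size of its difference is uncertain. It was -1.46 under normexp, and the second Emr1 probe, well above background on all arrays, gave -1.24 (adjusted p = 0.0017). Lyz2 (-3.49, SE 0.89, adjusted p = 0.014), C1qa (-2.51, SE 0.66, adjusted p = 0.016) and Ctss (-3.42, SE 0.85, adjusted p = 0.013) did not overlap between the cultures and were not called. All 3 passed without 72-hr replicate 3, when 13 of the 16 members were lower, with adjusted p of 0.00042, 0.0040 and 0.00061 and a median over the role of -2.05. Lyz2 and C1qa were not well above background on that replicate, so that the size of their differences with all arrays is uncertain. Over all members 10 were lower at 72 hr without dispersed replicate 5, 6 or 7 or without myofiber-associated replicate 1. Fcgr3, which was not tested, was not well above background on any myofiber-associated array at 72 hr. By the bound defined above it was at least 4.08-fold higher in dispersed myoblasts, a size that is uncertain.

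Cd68 was the member that was higher in the myofiber-associated culture, 4.41-fold at 48 hr (2.14, SE 0.20, adjusted p = 6.8e-05) and 3.41-fold at 72 hr (1.77, SE 0.26, adjusted p = 0.0012). At 48 hr its lowest myofiber-associated array, at 12.82, was above the highest dispersed array, at 11.47. Both of its probes gave this direction. Cd68 is carried by the lysosomes of many cells at a low level, and is most abundant in macrophages.

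The 3 tested MHC class II members were lower in the myofiber-associated culture at 48 hr, H2-Ab1 by 4.04-fold (-2.02, SE 0.35, adjusted p = 0.0015), H2-Eb1 by 2.68-fold (-1.42, SE 0.24, adjusted p = 0.0013) and Cd74 by 2.49-fold (-1.32, SE 0.30, adjusted p = 0.0054). At 72 hr Cd74 alone of the 3 was lower, by 2.07-fold (-1.05, SE 0.23, adjusted p = 0.0074). The call of Cd74 held under 8 of 16 alternatives at 48 hr and 6 of 16 at 72 hr, and in 2 and 1 of the 8 fits that left out 1 array. H2-Eb1 then had group means of 8.44 in myofiber-associated and 8.37 in dispersed myoblasts, with overlap (0.07, SE 0.13, adjusted p = 0.70), and H2-Ab1 differed by -0.63 (SE 0.17, adjusted p = 0.018).

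Of the 5 mast cell members tested, Kit and Cpa3 were lower in the myofiber-associated culture at 48 hr and Kit, Cpa3 and Cma1 at 72 hr. Kit was 7.49-fold lower at 48 hr (-2.90, SE 0.44, adjusted p = 0.00077) and 13.2-fold lower at 72 hr (-3.72, SE 0.21, adjusted p = 1.7e-05), without overlap. Cpa3 was 6.20-fold lower at 48 hr (-2.63, SE 0.55, adjusted p = 0.0039), and at 72 hr, where it was not well above background in the myofiber-associated arrays, dispersed myoblasts were at least 6.55-fold higher (means 6.42 and 3.15, adjusted p = 0.0014). Normexp gave -1.11 at 72 hr (adjusted p = 0.0076), smaller than this bound, and the 48-hr call of Cpa3 held under 9 of 16 alternatives and in 2 of the 8 fits without 1 array. The 72-hr difference of Kit was -2.44 under normexp. Mcpt4 was not called at either time (-1.45 and -1.22), and at 48 hr the pooled replicate 10, at 7.57, lay within the dispersed arrays. Without the pooled array all 5 mast cell members were lower at 48 hr.

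Among the pan-leukocyte members Lcp1 was lower by 7.43-fold at 48 hr (-2.89, SE 0.10, adjusted p = 8.1e-07) and 17.4-fold at 72 hr (-4.12, SE 0.42, adjusted p = 0.00023), and under normexp the 72-hr difference of Lcp1 was -3.03. Cd52 was lower by 5.66-fold at 48 hr (-2.50, SE 0.48, adjusted p = 0.0024). It was also lower at 72 hr (-3.31, SE 0.27, adjusted p = 8e-05), where 1 of 4 myofiber-associated arrays was well above background, and normexp gave -1.41 at 48 hr and -1.27 at 72 hr. Coro1a was lower at both times (-1.33 and -0.91). Laptm5 was 6.71-fold lower at 48 hr (-2.75, SE 0.15, adjusted p = 4.3e-06) and not called at 72 hr (-1.10, SE 0.28, adjusted p = 0.015). Cd48 was not called at either time (-0.20 and 0.08).

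The probes of a gene did not always move alike. Of the 37 members, 9 have more than 1 probe, and the probe with the highest mean signal stood for the gene. Both Laptm5 probes rose in both cultures (second probe 1.01 in dispersed, adjusted p = 0.0013, and 2.65 in myofiber-associated myoblasts, adjusted p = 0.0048). They lie side by side on the build mm9 at chr4:130490785-130490844 and chr4:130490893-130490952.

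Csf1r was read by 3 probes that disagreed. The brightest, used above, had 11.44, 11.41, 11.54 and 11.29 in dispersed 48-hr, 11.26, 11.11, 11.16 and 10.97 in dispersed 72-hr, 11.69, 11.65, 11.41 and 11.27 in myofiber-associated 48-hr and 11.22, 11.43, 11.29 and 11.24 in myofiber-associated 72-hr arrays, and it was called in no comparison. The second had 8.52, 8.41, 8.32 and 8.70 and then 10.46, 9.69, 10.14 and 9.75 in myofiber-associated myoblasts and rose (1.52, adjusted p = 0.0022). It rose by 0.38 in dispersed myoblasts (adjusted p = 0.0072), a change that was lower than the myofiber-associated one (-1.14, adjusted p = 0.0042), and it was higher in the myofiber-associated culture at 72 hr (1.13, adjusted p = 0.0014). The third, which was the dimmest, differed by -0.60 and -0.92 between times without being called. The direction of Csf1r with time therefore depended on the probe, and the mean of all 3 probes gave 0.13 in the myofiber-associated culture, where the brightest gave -0.21.

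Tpsb2, a mast cell tryptase, and Cd48 had a bright probe with small differences and a dimmer one with larger ones. The dimmer Tpsb2 probe had 7.93, 8.59, 8.08 and 7.14 and then 6.62, 6.66, 6.34 and 5.35 in dispersed arrays. In myofiber-associated arrays it had 5.65, 5.79, 5.66 and 7.58 and then 4.90, 4.74, 4.81 and 4.31, so that the pooled array was highest again. At 72 hr the myofiber-associated arrays were lower by this probe (-1.55, adjusted p = 0.0037), where the bright probe gave 0.30. The dimmer Cd48 probe averaged 6.12 and 5.03 in dispersed arrays and was above background on no myofiber-associated array. Single probes were fitted among all probes with a median log2 signal of at least 5, which left the dimmer Cd48 probe untested.

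**Figure D3:**
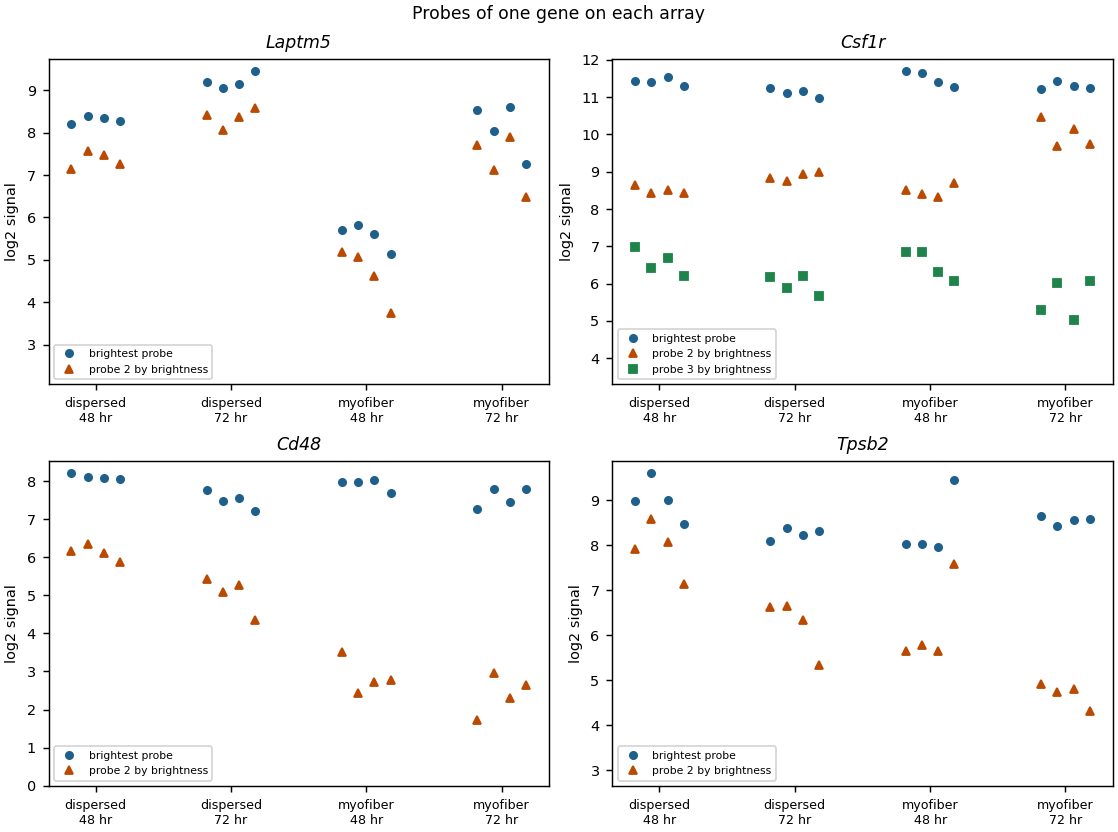
Log2 signal (y axis) of each probe of 4 members with more than 1 probe, on each array by culture and time (x axis). Points are arrays, and colors and shapes are probes ordered by brightness. The Laptm5 probes run in parallel, whereas the second Csf1r probe rises to 9.69 to 10.46 in the myofiber-associated 72-hr arrays and the other two Csf1r probes do not.

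Within groups, the arrays on which a role stood high or low were compared. The median deviation of a role's tested members from their group mean was taken on each array. For the 16 monocyte and macrophage members it was -0.03, 0.71, -1.50 and 0.83 on myofiber-associated 72-hr replicates 1 to 4, and replicate 3 was the lowest array for 12 of the 16. On these same arrays the 5 mast cell members deviated by 0.06, 0.11, -0.39 and 0.18, with the lowest and highest array the same as for macrophage genes. Of these members Cpa3 and Cma1 were well above background on 0 of the 4 arrays and Mcpt4 on 3, so that this order is uncertain. The 12 adult muscle fiber genes deviated by -0.75, 0.84, -1.37 and 1.32. Under normexp the macrophage deviation of replicate 3 was -0.38. Whether the fiber and macrophage signals have a common source was not tested.

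On the myofiber-associated 48-hr replicates 7, 8, 9 and 10 the mast cell members deviated by -0.16, -0.65, -0.87 and 1.58, and the pool, replicate 10, was highest for 5 of 5. The 3 MHC class II members were also all highest there (deviation 0.79). The macrophage members deviated by 0.51, -0.15, 0.05 and -0.48, and the pool was lowest for 10 of 16. The endothelial list deviated by 0.63 on the pool and the adult muscle fiber list by -0.51.

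In dispersed arrays the deviations of macrophage genes were smaller, 0.19, -0.14, 0.07 and -0.16 at 48 hr and 0.26, -0.14, 0.21 and -0.36 on replicates 5 to 8 at 72 hr. Replicate 8 was lowest for 15 of 16 macrophage members and for 3 of 5 mast cell members (deviation -1.04). Mast cell members were highest on 48-hr replicate 2 (0.65) and 72-hr replicate 6 (0.85), where the macrophage deviation was -0.14 on each.

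**Figure D4:**
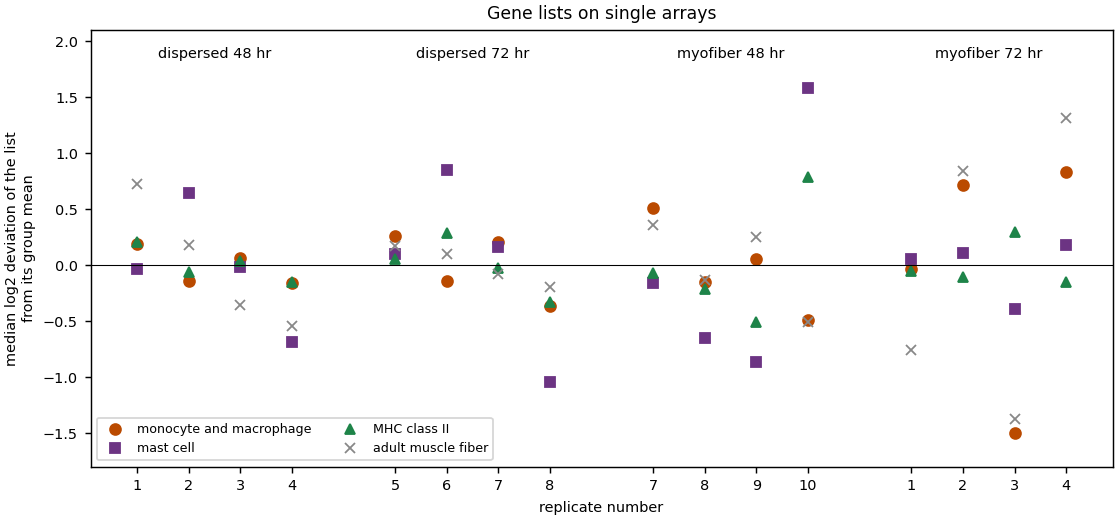
Median log2 deviation from the group mean (y axis) of 3 roles and of 12 adult muscle fiber genes on each array (x axis, replicate numbers within the 4 groups). Points are medians over the tested genes of a list on 1 array. Mast cell and MHC class II genes stand highest on the pooled replicate 10 (1.58 and 0.79), and macrophage genes lowest on myofiber-associated 72-hr replicate 3 (-1.50), next to the adult muscle fiber genes (-1.37).

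Further genes of the same cells were followed in lists that share no gene with the members. Over all genes tested 6.35% fell and 7.37% rose with time in dispersed myoblasts, and 1.75% fell and 3.74% rose in myofiber-associated myoblasts. Between the cultures 27% were lower and 16.1% higher in the myofiber-associated arrays at 48 hr, and 15.6% and 11.5% at 72 hr. The counts of each list below are to be read against these shares. Of 49 other monocyte and macrophage genes 32 were tested, of which 18 fell and 2 rose from 48 to 72 hr in dispersed myoblasts (median -0.84). The largest falls were those of the chemokines Pf4 (-1.73, adjusted p = 0.00053) and Ccl3 (-1.68, adjusted p = 0.00011), and the genes that rose were the cytokine Il1b (1.15, adjusted p = 0.00057) and the receptor chain Csf2ra (0.51, adjusted p = 0.0050). In myofiber-associated myoblasts 3 fell and 1 rose, with Pf4 lower (-2.26, adjusted p = 0.0029) and Il1b higher (1.998, adjusted p = 0.0053). Between the cultures 18 were lower in the myofiber-associated arrays at 48 hr and 13 at 72 hr, and 1 was higher at each time, Pla2g7 (1.59) at 48 hr and Il1b (0.84) at 72 hr.

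MHC class I genes, which nearly all cells use, fell in dispersed myoblasts for 9 of 11 (median -0.96), with the immunoproteasome subunits Psmb8 (-1.73, adjusted p = 6.1e-05) and Psmb9 (-1.62, adjusted p = 0.00010) first. In the myofiber-associated culture none was called by limma (median -0.59), and the dispersed change was lower for Psmb9 (-1.41, adjusted p = 0.0014) and Tap2 (-0.92, adjusted p = 0.0064), a peptide transporter subunit. They were lower in the myofiber-associated culture for 10 of 11 at 48 hr and 7 of 11 at 72 hr, against 27% and 15.6% of all genes. Of 12 other class II genes 7 were tested. The co-stimulatory receptor Cd40 fell in dispersed myoblasts (-1.42, adjusted p = 8.4e-05) and Cd80 rose (0.71, adjusted p = 0.0045). None was called over time in the other culture. Ciita, the regulator of class II transcription, was not tested, with log2 signals of 3.02 to 4.75 and 6 of 16 arrays well above background.

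Of 20 other mast cell genes 8 were tested. Histidine decarboxylase, Hdc, which makes histamine, fell in dispersed myoblasts (-2.18, adjusted p = 0.00017), as did Tph1 (-1.59, adjusted p = 0.0074), which makes serotonin, whereas Mcpt8, a protease of basophils, rose (0.90, adjusted p = 0.00022). In myofiber-associated myoblasts Il1rl1, the receptor of interleukin-33, fell (-2.01, adjusted p = 0.0050) and the factor Gata2 rose (0.93, adjusted p = 0.0077). Srgn, the core protein of granule proteoglycans, was lower in the myofiber-associated culture by -2.01 at 48 hr and -3.63 at 72 hr. The high-affinity IgE receptor chain Fcer1a was above background on 3 of 4 dispersed 48-hr arrays and on 1 of the other 12.

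Of 18 other pan-leukocyte genes 13 were tested, and 7 fell in dispersed myoblasts, led by the signaling proteins Vav1 (-1.33) and Inpp5d (-1.13). In myofiber-associated myoblasts the phosphatase Ptpn6 (1.99, adjusted p = 0.0081) and Spn, which encodes CD43 (1.20, adjusted p = 0.0061), rose while Inpp5d (-2.11, adjusted p = 0.0022) and Hcls1 (-1.35, adjusted p = 0.0048) fell. Between the cultures 9 were lower in the myofiber-associated arrays at 48 hr and 7 at 72 hr, against 27% and 15.6% of all genes. Inpp5d (-2.87 and -3.85) and Arhgdib (-2.83 and -3.03) were furthest, and the tetraspanin Cd37 was higher (2.07 and 1.19).

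Genes of lymphocytes and neutrophils were mostly not measured. Of 18 T and NK cell, 10 B cell and 14 neutrophil genes, 6, 2 and 5 were tested. The neutrophil antigen gene Ly6g fell in dispersed myoblasts (-2.12, adjusted p = 4.2e-05). Among the 6 T and NK cell genes tested 3 were higher in the myofiber-associated culture at 72 hr, against 11.5% of all genes. Lck (0.59) and Cd3e (0.57) were higher the most, and none of the 6 was lower by limma. Of 11 dendritic cell genes 6 were tested, and Clec10a, a lectin that macrophages also carry, fell in dispersed myoblasts (-0.95, adjusted p = 0.0051), while Batf3, a transcription factor, rose in the myofiber-associated culture (1.41, adjusted p = 0.0017).

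The ligands of the member receptors were present in both cultures. Csf1, the ligand of CSF1R, had log2 signals of 15.39 to 16.47 over all arrays. Il34, its other ligand, fell in dispersed myoblasts (-0.54, adjusted p = 0.0074), and so did Kitl, the ligand of KIT (-0.86, adjusted p = 0.0071). Kitl was lower in the myofiber-associated culture by -2.36 at 48 hr (adjusted p = 0.00014) and -2.03 at 72 hr (adjusted p = 0.00016). Csf2, the granulocyte and macrophage growth factor, was higher in the myofiber-associated culture at 48 hr, with 8.40 to 9.79 against 5.25 to 6.49 in dispersed myoblasts (2.96, adjusted p = 0.00025), and fell there by 72 hr to 5.34 to 6.34 (-3.25, adjusted p = 0.0012). Its change differed between the cultures (3.75, adjusted p = 0.0031).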

How the data were processed

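RNA of 16 myoblast preparations was measured on one-color Agilent arrays. Per the file headers, the deposited intensity values (processed signal) were made with Agilent Feature Extraction, which subtracts background and corrects trends within an array. Probe positions are on mm9. The authors also deposited log2 ratios for the 72-hr arrays, set against their 48-hr arrays, used here as an alternative only.

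After the study's methods, log2 signals went through loess against the averaged 48-hr arrays of the culture and were quantile-normalized over all arrays, identical probes were averaged and the brightest probe stood for a gene. The removal of outlier spots and the loess settings, a span of 0.3 and 4 iterations, were chosen here. Of 59305 gene spots and 55681 probes, 1831 probes are named differently on the 2 slides, no member probe among them. On each array 54.0 to 63.5% of probes were well above background and no spot was saturated. The number of arrays limits the precision.

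Times were compared within each culture, cultures within each time, and the 2 changes by an interaction, in limma 3.58.1 (R 4.3.3), two-sided, with Benjamini-Hochberg adjustment and a threshold of 0.01. limma took the place of the samr test, which was not run. The procedure was tested on simulated data. Motifs and figures were made with matplotlib 3.10.9, numpy 2.4.6 and pandas 2.3.3 in Python 3.11.15. Alternatives were quantile normalization without loess, scaling to the 75th percentile, normexp (offset 50), other filters on low signal, the mean of all probes, 1 fit of all arrays, the slide row as a block, the authors' ratios and leaving out each array. Leaving out the pooled array together with 72-hr replicate 3, and fitting each probe, were chosen after seeing the data.

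Values on every array are given for Ptprc, Csf1r, Lyz2, C1qa, Cd74, H2-Ab1, Kit, Cpa3 and Mcpt4 and, per comparison, for up to 4 further members with the largest difference past the threshold, if all arrays of a group were well above background. Of each further list, genes with the largest rises and falls past the threshold are named, except some genes that are not reported here. Spi1, Ciita, Fcer1a, Csf1 and the members just outside the threshold were chosen after their values were seen. The members and lists were chosen with earlier results of these data known.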

Additional observations from a re-analysis of the deposited data

Results flagged for a closer look

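Single arrays stood apart for 8 of 164 groups of 4 arrays, where the gap between the most extreme array and its neighbor took up most of the range of the group. Chance gives about 1 in 20 groups. The pooled myofiber-associated 48-hr replicate 10 was highest for Tpsb2, at a log2 signal of 9.45 where the next array had 8.02, and lowest for Cd48, at 7.68 where the next had 7.97. Replicate 7 of the same group was highest for Mpeg1, which encodes a pore-forming protein of macrophages, at 8.32 over 7.62. In the myofiber-associated 72-hr group replicate 4 was highest for the Fc receptors Fcgr1 (3.05 over 2.19) and Fcgr3 (3.62 over 2.46), both not well above background there, and replicate 3 was highest for H2-Ab1 (7.62 over 7.19). In the dispersed 72-hr group replicate 6 was highest for H2-Aa (3.60 over 1.97) and replicate 5 for Cd163 (2.29 over 1.93), and neither gene was well above background on these arrays.

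The change from 48 to 72 hr differed between the cultures for Laptm5, by -1.64, and for H2-Eb1, by -1.49, both as dispersed minus myofiber-associated and both past the threshold in limma's test of the interaction.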

How the results depend on the processing

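No paired analysis was possible because the groups compared share no replicate numbers that link preparations. The counts of members called moved by over 1.5 times as follows, and the cause was not tested. The authors' ratios give 1 value per 72-hr array against the averaged 48-hr arrays. The spread among the 48-hr arrays therefore did not enter the fits of these ratios, and their counts are not on equal terms with the others. In dispersed myoblasts 11 members fell, against 7 with no filter on low signal, 3 in 1 fit of all arrays and 18 with the authors' ratios, and the 1 that rose was not called (0) in 1 fit of all arrays. In myofiber-associated myoblasts 1 fell, against 0 after scaling to the 75th percentile, normexp or the slide row as a block, 10 in 1 fit of all arrays and 9 with the authors' ratios, and 1 rose, against 2 in 1 fit of all arrays, with the authors' ratios, or without both doubted arrays. For the difference between the cultures 2 were lower, against 1 with normexp, the mean of all probes or the slide row, 0 with no filter and 5 with the authors' ratios. Leaving out single arrays gave 6 to 10 falling and 1 to 1 rising members in dispersed myoblasts, 0 to 4 and 0 to 3 in myofiber-associated myoblasts, 0 to 4 lower and 0 to 0 higher for the difference, 20 to 26 lower and 1 to 1 higher between the cultures at 48 hr, and 10 to 21 and 1 to 1 at 72 hr. Direction turned for Csf1r over time in the myofiber-associated culture with the mean of all probes (0.13). For the difference between the cultures it turned under normexp for C1qa (-0.18), Kit (-0.026), Cpa3 (-0.56), Cd52 (-0.14) and Tyrobp (-0.034), and without both doubted arrays for C1qa (-0.023), Cpa3 (-0.19) and Tyrobp (-0.045). Without 72-hr replicate 3 alone it turned for Lyz2, C1qa, Ctss and Tyrobp, and the values without single arrays ran from -0.044 to 1.43 for Lyz2, -0.35 to 0.75 for C1qa, -0.19 to 1.20 for Ctss, -0.22 to 0.87 for Tyrobp and, turned without any of 4 other arrays, from -0.76 to 0.16 for Mcpt4. H2-Eb1 between the cultures at 72 hr ran from -0.033 to 0.17, below 0 without the same replicate 3. Low signal limits the genes near background, such as Fcgr1 and Cybb.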
